A study of Mus musculus with 20 samples.

Results

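The genes described here lie in the distal end of mouse chromosome 9, around Myd88. They are the 345 genes, of 30119 on the array, whose probes map to chromosome 9 from 15.2 Mb proximal of the Myd88 probe to the chromosome's end in the mm9 build. Myd88 itself, Tgfbr2, Cish, Scap and the genes with names starting Ccr, Cx3cr, Cxcr, Trim, Slc, Zfp or Gpr were left out by name, which removed 31 genes. The Myd88 probe lies at chr9:119245322-119245381, and the last member probe lies 4.52 Mb beyond it. The members were chosen by position and name, not by a threshold on expression. Of the 345 genes, 266 had a probe bright enough to keep, and 79 did not and are given no value.

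Myd88 encodes the adapter through which most Toll-like receptors signal, and Ticam1 encodes TRIF, the other adapter of Tlr4, the receptor for bacterial lipopolysaccharide (LPS). A gene disrupted in stem cells of one mouse strain and bred into another keeps donor chromosome on both sides of it, for a length that depends on the number of crosses. Genes in such a stretch are called passenger genes. The interval also holds genes of neutrophil granules: Ltf (lactotransferrin, an iron-binding protein), Camp (the precursor of the antimicrobial peptide cathelicidin) and Ngp (neutrophilic granule protein). Itga9, the integrin subunit alpha 9, which pairs with integrin beta 1 and binds ligands such as tenascin-C and osteopontin, lies next to Myd88. How the MyD88 line was made and crossed is not given in the sources used here.

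The 20 arrays, of 2 colours each, read RNA of macrophages grown for 6 days from bone marrow of C57BL/6 mice in medium conditioned by L929 cells. The cells carried 4 genotypes by their labels: wild type (WT), TRIF-KO, MyD88-KO and the double-KO of MyD88 and TRIF. Each array held untreated and LPS-treated cells (200 ng/mL, in serum-free medium) of 1 genotype at 1 time point, so that each genotype had 1 array at 1, 2, 4, 8 and 16 h. Nothing in the sources says that the arrays of a genotype came from separate animals or cultures, so the p-values measure only the spread between these arrays. Genotype names below are those of the labels.

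The Ticam1 probe read 10.7 in WT, 10.8 in TRIF-KO, 10.5 in MyD88-KO cells and 7.28 where both genes are labelled as deleted (means of log2 levels), so that the arrays labelled TRIF-KO stood at the WT level. The Myd88 probe read 14.4, 14.4, 14.1 and 14.0. Whether it lies in a deleted part of the gene is not given in the sources used here, so it checks no label. Xist, the RNA of the silenced X chromosome, read 10.2 in WT and 10.4 in MyD88-KO cells but 6.52 in TRIF-KO and 6.40 in double-KO cells; per the labels, sexes were matched. MyD88-KO against WT and double-KO against TRIF-KO therefore each compared arrays of 1 sex type, and these comparisons share no array. The untreated RNA was labelled with Cy3 on 19 arrays and with Cy5 on the MyD88-KO array of 2 h, which entered no test of levels. The scan day nearly followed the MyD88 label: all 10 arrays labelled with MyD88 were scanned on day 1, and of the 9 arrays without it only that of MyD88-KO at 1 h was. Slides were inferred: arrays with the same scan date and time in the file headers are called a slide below. Macrophage markers were at like summed levels in the 4 genotypes, between 19.55 and 20.15 on the log2 scale. Bright genes weigh most in that sum. Of 9 markers represented, Adgre1 (0.29) and Mertk (0.20) were higher without MyD88 and Fcgr1 (-1.02) lower, past an adjusted p of 0.05 (limma). Of all genes, 16.6% were higher and 11.5% lower by that comparison. Between 54.9% and 69.6% of probes were well above background in the Cy3 channel, and precision is limited by how many arrays there are.

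Each gene was read by probes of 60 bases, and the values that follow rest on them. The first 30 bases of the probes of Itga9 and Xylb, the member genes whose arrays separated fully by the MyD88 label, are shown with the stretch that the pair of Camp probes have in common. Capitals mark the bases at which the Camp probes differ. The Itga9 probe lies at chr9:118807900-118807959 and the Xylb probe at chr9:119302372-119302430 (mm9). Exons and untranslated regions under them were not assessed here.
Itga9 probe: taccttcagctttgtgtagccaaaaaagcc
Xylb probe: gaagggaggagagtaaagacaagatccctg
Camp probe A_55_P2039699, from its base 11: cagccAgagTagtaggcctgccttggcctg
Camp probe A_55_P2158102, from its base 1: cagccGgagCagtaggcctgccttggcctg
Over the 50 bases they share, the Camp probes differ at 2 positions, A6G and T10C, counted from 1 at the 5′ end of the stretches shown, with the base of A_55_P2039699 first.

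By the MyD88 label as a whole, the interval genes did not stand out as a group in untreated cells. In the comparison of MyD88-KO and double-KO arrays with WT and TRIF-KO arrays (9 against 10), 74 of 265 member genes that could be tested passed an adjusted p of 0.05 (limma, Benjamini-Hochberg over all genes), or 27.9%, against 28.1% of all genes tested. Of these 74, 46 were higher without MyD88 and 28 lower; over all genes 16.6% were higher and 11.5% lower. The rest of chromosome 9 gave 212 of 834 genes, or 25.4%. The median size of the difference was 0.13 (log2) in the members, 0.13 in the rest of the chromosome and 0.14 over all genes. A difference of at least 2-fold was reached by 1 member, 0.377% of those tested, against 1.77% of all genes.

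The share stayed near the background with slide or scan day in the model and without the time point. With slide as a random block the count was 36 (13.6% of members, 12.9% of all genes). With slide as a fixed block the count was 28 (10.6% of members, 9.97% of all genes), with scan day as a fixed block 24 (9.06% and 8.43%), and without the time point in the model 31 (11.7% and 10.9%). Leaving out slide 3, a choice made after seeing the data, gave 64 (24.2% of members, 20.1% of all genes). The difference had the same sign at all 5 time points in 74 of 266 members (27.8%), 41 of them higher, against 28.7% of all genes and 26.5% of the rest of the chromosome. At 2 h only 1 array without MyD88, that of double-KO cells, entered this count.

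**Figure D1:**
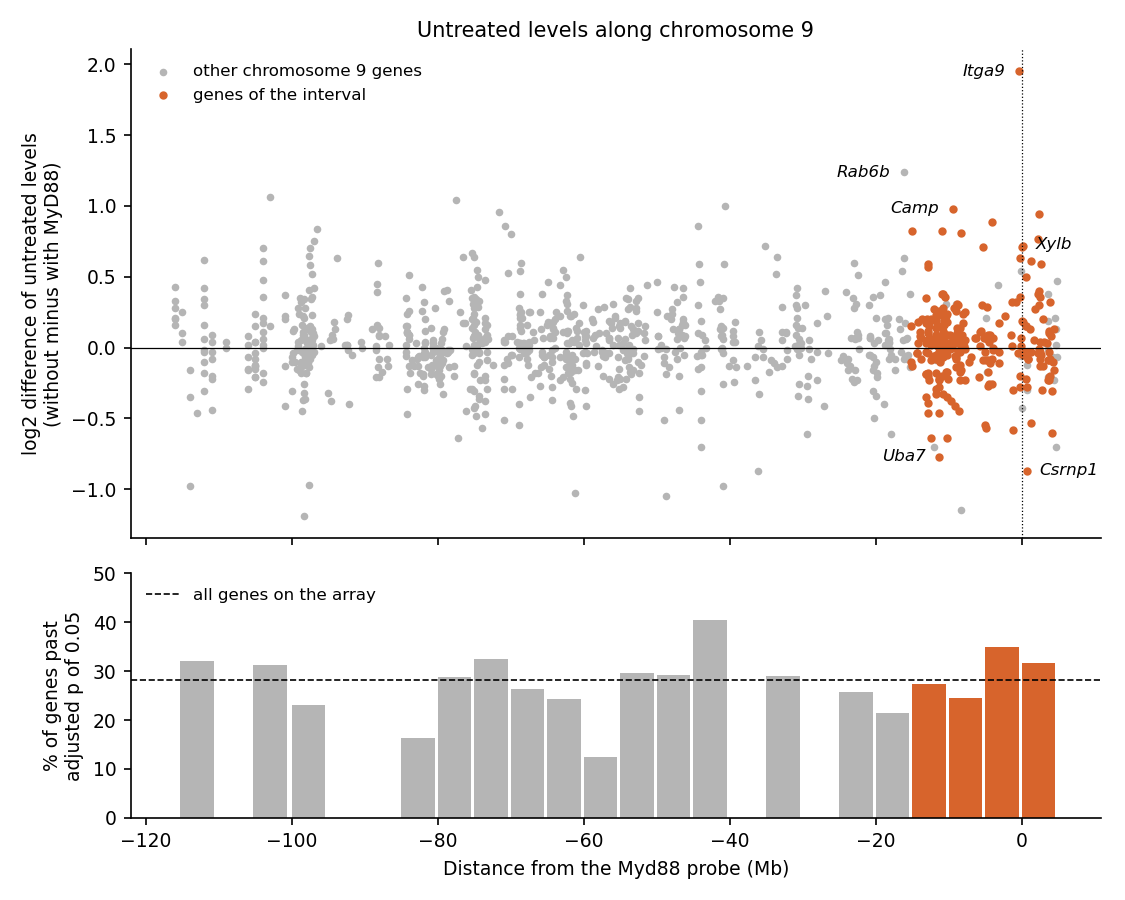
Upper panel: log2 difference of untreated levels, arrays labelled without MyD88 minus arrays labelled with it, for each chromosome 9 gene, against the distance of its probe from the Myd88 probe in Mb (0 is Myd88, negative values are proximal); orange points are the interval genes, and grey points past the start of the interval are genes left out by name. Lower panel: percent of genes past an adjusted p of 0.05 in windows of 5 Mb with at least 20 genes (those left out by name included), with the 28.1% of all genes as a dashed line. Itga9 stands at 1.95, and the windows of the interval run from 24.6% to 35%.

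Among the distance classes of the interval, the share was highest beside Myd88. Within 1 Mb of its probe 11 of 24 genes passed (45.8%), with a median size of 0.19. The shares were 25% (7 of 28 genes) from 1 to 5 Mb on the proximal side, 23.2% (13 of 56) from 5 to 10 Mb, 26.1% (30 of 115) beyond 10 Mb and 31% (13 of 42) more than 1 Mb distal. The difference between these classes was not tested. In the rest of chromosome 9, windows of 5 Mb ran from 0% (0 of 6 genes) to 41.2% (7 of 17). The window from 74 to 79 Mb gave 40.5% (15 of 37). The count within 1 Mb was 6 without the time point, 6 with slide as a fixed block and 3 with scan day as a fixed block, against 10.9%, 9.97% and 8.43% of all genes past the threshold in these fits. With the scanner's processed signal it was 8 of 24 (33.3%), against 26.7% of all genes.

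Itga9, at -0.437 Mb from Myd88 (negative is proximal), was higher on every array labelled without MyD88. Its untreated level (log2) at 1, 2, 4, 8 and 16 h was 7.29, 7.25, 7.37, 7.61 and 8.47 in WT cells and 7.15, 7.07, 7.10, 7.14 and 7.95 in TRIF-KO cells. In double-KO cells it was 8.97, 8.85, 8.95, 9.16 and 10.46, and in MyD88-KO cells 9.11, 9.26, 9.18 and 10.79 at 1, 4, 8 and 16 h. The groups did not overlap: the lowest array without MyD88 lay above the highest array with it. The 16 h array was the highest of each genotype.

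The Itga9 difference was 1.95 ± 0.08 (log2, SE, n = 9 and 10), 3.86-fold, with an adjusted p of 2.5e-09 (limma). It was 1.90 ± 0.12 between MyD88-KO and WT and 2.00 ± 0.11 between double-KO and TRIF-KO, and these values did not differ beyond their error (interaction 0.09 ± 0.17, adjusted p = 0.81). Hour by hour it ran from 1.69 at 2 h, where double-KO cells gave the only array without MyD88, to 2.42 at 16 h. TRIF-KO against WT gave -0.32 ± 0.11 (adjusted p = 0.24). The difference remained with slide as a fixed block (2.39, adjusted p = 0.0063) and with scan day as a fixed block (1.78, adjusted p = 0.0017). On slide 3, which held both kinds of array, the MyD88-KO array of 1 h read 9.11 and the TRIF-KO arrays of 8 and 16 h read 7.14 and 7.95. In the LPS-treated cells of the same arrays, read in the other colour, the difference was 1.45 ± 0.26 (adjusted p = 0.0026).

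Non-overlapping groups were found in 2 member genes, Itga9 and Xylb, or 0.755% of members against 0.654% of all genes; both were higher without MyD88, which 0.286% of all genes were. Itga9 was the only member that also passed 2-fold, a combination met by 50 genes of the array (0.227%). In the rest of chromosome 9 it was met by 1 gene, Rab6b, a Golgi GTPase, at 1.24 (adjusted p = 1.5e-05), at -16.2 Mb from Myd88 and so just outside the interval.

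Xylb, which encodes xylulokinase, lies 0.057 Mb distal of Myd88. Its untreated level at 1, 2, 4, 8 and 16 h was 10.35, 10.54, 10.36, 10.63 and 10.06 in WT cells, and 10.18, 10.45, 10.50, 10.70 and 10.07 in TRIF-KO cells. MyD88-KO cells gave 11.00, 10.70, 11.01 and 10.70 at 1, 4, 8 and 16 h, and double-KO cells 11.05, 11.24, 11.58, 11.56 and 11.13. All arrays without MyD88 lay at or above the highest array with it, to the second decimal. The difference was 0.71 ± 0.07 (1.63-fold, adjusted p = 8.9e-06, limma), with 0.48 ± 0.11 for MyD88-KO against WT (adjusted p = 0.014) and 0.93 ± 0.10 for double-KO against TRIF-KO (adjusted p = 1.1e-05). With slide as a fixed block it was 1.09, with an adjusted p of 0.051.

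The other close neighbours went in both directions. Acvr2b, a type II receptor for activins 0.0972 Mb distal of Myd88, was 0.72 ± 0.13 higher without MyD88 (adjusted p = 0.00073). Its levels at 1, 2, 4, 8 and 16 h were 11.08, 12.06, 12.36, 11.86 and 11.36 in WT, 11.15, 12.13, 12.47, 11.77 and 10.82 in TRIF-KO and 12.01, 12.22, 12.86, 12.91 and 12.41 in double-KO cells. MyD88-KO cells gave 12.04, 12.58, 12.55 and 12.17 at 1, 4, 8 and 16 h, and these groups overlapped. With scan day as a fixed block the adjusted p was 0.091.

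Ctdspl, a small phosphatase of the RNA polymerase II tail, rose by 0.63 ± 0.11, Gorasp1, a Golgi stacking protein, by 0.50 ± 0.09, and Golga4, a golgin, by 0.32 ± 0.08. Plcd1 (phospholipase C delta 1) rose by 0.36, with 0.10 in MyD88-KO against WT and 0.62 in double-KO against TRIF-KO. The peroxisomal thiolase gene Acaa1a rose by 0.19 and Ttc21a by 0.15 (-0.08 with slide as a fixed block). Csrnp1, a nuclear protein of the cysteine-serine-rich family, fell by 0.87 ± 0.16 (adjusted p = 0.0011), and Vill, a relative of villin, fell by 0.28. For Vill the value was -0.66 in MyD88-KO against WT but 0.11 in double-KO against TRIF-KO. Among the genes nearest to Myd88, Oxsr1 (a kinase, 0.07), Acaa1b (0.01), Dlec1 (-0.20) and Exog (-0.05) did not pass. Acaa1a and Acaa1b are close copies, so their probes may share signal.

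**Figure D2:**
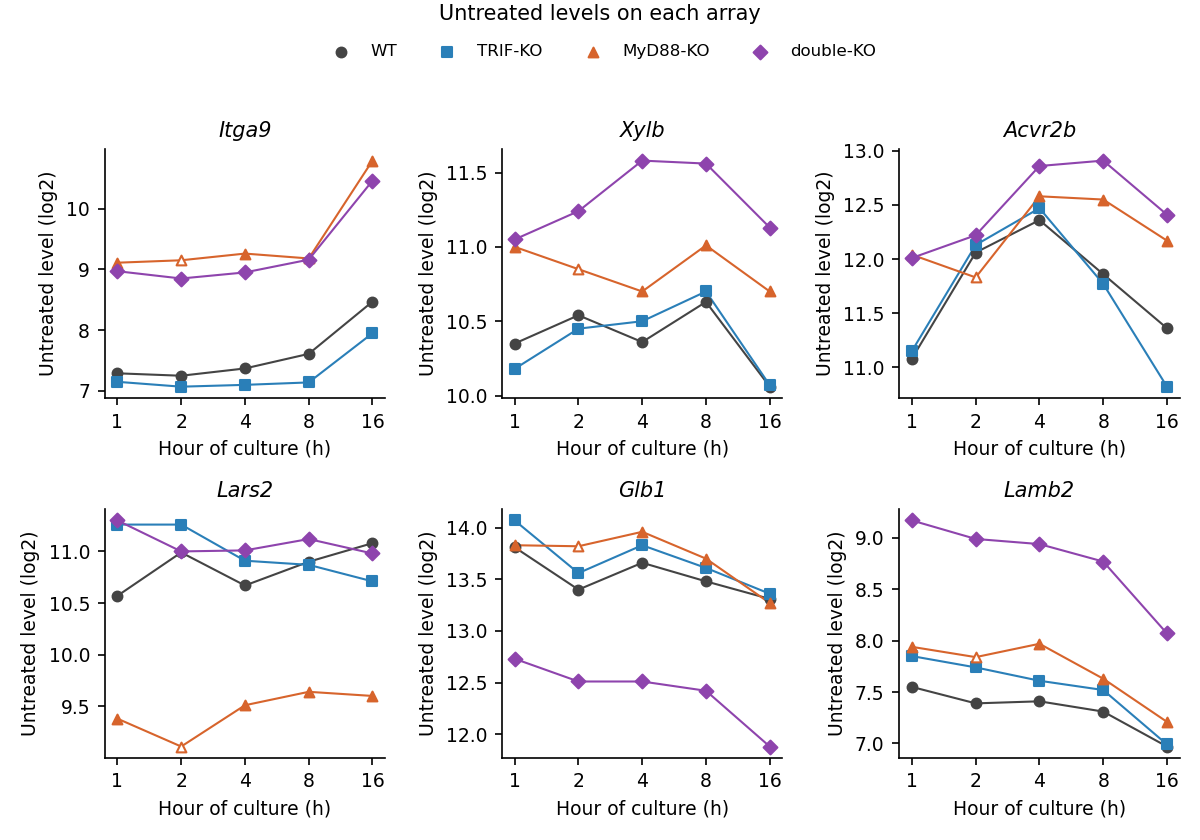
Untreated log2 level of 6 interval genes on each array against the hour, with 1 point per array and a line per genotype; the open MyD88-KO symbol at 2 h is the array of opposite dye, which entered no test of levels. For Itga9 and Xylb both genotypes without MyD88 lie above both with it, while Lars2 stands apart in MyD88-KO cells and Glb1 and Lamb2 in double-KO cells.

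The granule genes Ltf, Camp and Ngp were higher in MyD88-KO than in WT cells, and in double-KO against TRIF-KO cells none of them was higher by the test. By the MyD88 label as a whole, Camp was 0.98 higher (adjusted p = 4.5e-07) and Ltf 0.81 higher (adjusted p = 1.2e-06), and Ngp gave 0.31 (adjusted p = 0.15). With slide as a fixed block, Ngp was instead lower without MyD88, at -1.44 (adjusted p = 0.014, limma). The upstream 250 bases of their start sites (RefSeq, GRCm38.p6, listed for 196 of the 266 members) are shown because all 3 were higher in MyD88-KO than in WT cells. For Ngp that did not hold with slide as a fixed block, as given below. Capitals mark matches to TTGCNNAA on either strand, a short form of the binding motif of C/EBP factors. Camp is on the minus strand at chr9:109849457-109849706, Ltf on the plus strand at chr9:111019042-111019291 and Ngp on the plus strand at chr9:110419558-110419807.
Camp: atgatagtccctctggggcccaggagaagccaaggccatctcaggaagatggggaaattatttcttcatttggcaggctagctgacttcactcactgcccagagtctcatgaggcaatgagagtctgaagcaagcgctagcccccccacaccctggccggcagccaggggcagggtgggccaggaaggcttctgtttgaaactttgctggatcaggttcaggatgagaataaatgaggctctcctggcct
Ltf: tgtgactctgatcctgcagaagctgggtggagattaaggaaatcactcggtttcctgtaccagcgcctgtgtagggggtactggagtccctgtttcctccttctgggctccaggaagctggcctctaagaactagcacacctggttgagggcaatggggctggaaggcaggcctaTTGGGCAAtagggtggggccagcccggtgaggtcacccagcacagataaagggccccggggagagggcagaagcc
Ngp: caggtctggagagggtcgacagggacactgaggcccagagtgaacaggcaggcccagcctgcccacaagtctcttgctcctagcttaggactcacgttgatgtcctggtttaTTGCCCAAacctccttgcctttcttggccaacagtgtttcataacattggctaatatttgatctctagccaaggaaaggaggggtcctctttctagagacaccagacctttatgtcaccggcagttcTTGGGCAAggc
Ltf has 1 match, starting 75 bases before the start site, Ngp has 2, at 138 and 11 bases, and Camp has no match in this window. Of 32851 listed promoters of the same length, 9.56% hold a match. The motif GAGGAAGT of PU.1, searched on both strands, had no match in these 3 windows, and 2.44% of all promoters hold it. The same held for the AP-1 motif, written TGANTCA, which 6.75% hold. The letters TATAAA of the canonical core promoter element, held by 12.4%, had no match either. The 3 matches do not overlap one another.

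Ltf read 9.89, 9.83, 9.93, 10.50 and 10.86 at 1, 2, 4, 8 and 16 h in WT cells and 11.61, 12.02, 12.58 and 12.53 at 1, 4, 8 and 16 h in MyD88-KO cells, with no overlap. It read 10.35, 10.44, 10.39, 10.95 and 11.06 in TRIF-KO cells and 9.89, 9.89, 10.16, 10.98 and 10.91 in double-KO cells, which overlapped. MyD88-KO exceeded WT by 1.90 ± 0.10 (3.72-fold, adjusted p = 4e-08, limma), while double-KO lay 0.27 below TRIF-KO (-0.27 ± 0.09, adjusted p = 0.042, and 0.60 without the time point in the model). The difference between these effects was -2.17 ± 0.13 (adjusted p = 1.5e-07).

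Camp read 10.78, 10.92, 10.88, 10.96 and 11.09 in WT cells and 12.55, 12.65, 12.95 and 12.92 in MyD88-KO cells at the same hours, again with no overlap. It read 11.11, 11.72, 11.56, 11.68 and 11.47 in TRIF-KO and 11.40, 11.43, 11.50, 12.06 and 11.80 in double-KO cells, and every double-KO array was above every WT array. The MyD88-KO difference was 1.84 ± 0.11 (3.58-fold, adjusted p = 1.3e-07) and the double-KO difference 0.13 ± 0.10 (adjusted p = 0.39), with an interaction of -1.71 ± 0.14 (adjusted p = 4.4e-06). The second Camp probe gave 1.82 and 0.13. Camp was also 0.58 ± 0.10 higher in TRIF-KO than in WT cells (adjusted p = 0.014).

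Ngp, dimmer, read 9.21, 8.02, 8.58, 8.69 and 8.42 in WT and 9.46, 9.67, 10.14 and 9.86 in MyD88-KO cells, with 9.46, 8.24, 8.90, 9.49 and 9.51 in TRIF-KO and 8.03, 8.52, 8.76, 9.05 and 9.06 in double-KO cells. Each MyD88-KO array was above each WT array. MyD88-KO exceeded WT by 1.06 ± 0.23 (2.09-fold, adjusted p = 0.012), double-KO against TRIF-KO gave -0.44 ± 0.21 (adjusted p = 0.17), and the interaction was -1.5 ± 0.31 (adjusted p = 0.014). The first of these differences for Ngp was 0.77 with scan day as a fixed block (adjusted p = 0.34) and 0.03 with slide as a fixed block (adjusted p = 0.96). With slide as a fixed block the differences between MyD88-KO and WT were 1.65 for Ltf and 2.17 for Camp, both with an adjusted p of 0.03.

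Neutrophil genes elsewhere in the genome were also higher in MyD88-KO cells. Of 18 represented genes of a list of neutrophils and granulocyte precursors, which includes Mmp8 at the other end of chromosome 9, 13 were higher and 0 lower in MyD88-KO against WT, and 0 were higher and 2 lower (Lcn2 and Ly6g) in double-KO against TRIF-KO. Of all genes, 6.16% were higher and 3.76% lower in the first comparison, and 13% and 9.79% in the second. Their median difference was 0.55 and 0.00, against 0.00 and 0.01 over all genes. S100a9, a calcium-binding protein abundant in neutrophils, gave 1.61 and -0.08, S100a8, its partner, 1.36 and -0.43, and Retnlg 1.15 and -0.07. Lcn2 gave -1.88 and -2.31 and Ly6g -1.42 and -1.72; the first value of each did not pass (adjusted p = 0.14 and 0.083). The summed level of the list was between 17 and 17.23 (log2) on the MyD88-KO arrays. It was 15.80 to 16.42 in WT, 15.80 to 16.56 in TRIF-KO and 15.88 to 16.39 in double-KO cells. Bright genes weigh most in this sum, S100a9 above all (mean 16.47 in MyD88-KO and 14.82 in WT cells). Among the 13 higher genes, Mmp9, Cd177, Ms4a3, Fcnb and Stfa2l1 were dim in WT cells (means 6.94 to 7.23). The defining genes Elane, Prtn3 and Stfa2 did not pass in either comparison. In bulk RNA, more cells of a type and more RNA per cell cannot be told apart, and the part of these cells in the Ltf, Camp and Ngp values was not tested.

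**Figure D3:**
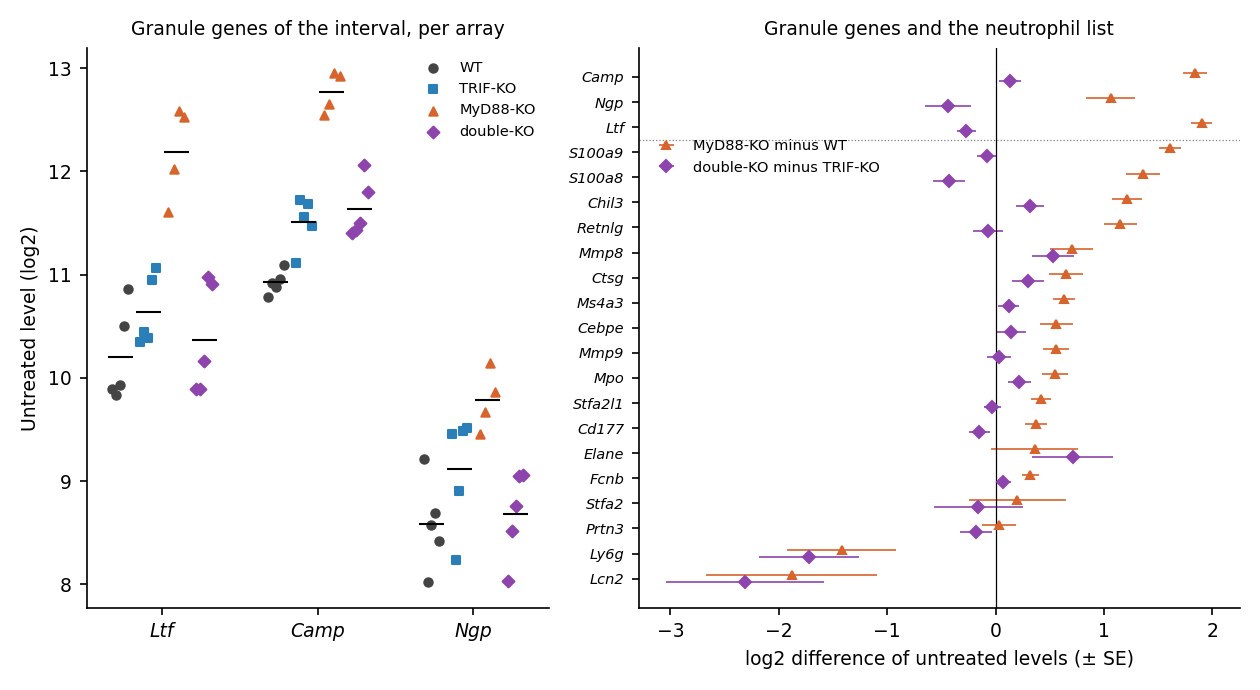
Left: untreated log2 levels of Ltf, Camp and Ngp, 1 point per array used in the tests and a bar at each genotype's mean. Right: log2 difference ± SE of the 3 granule genes (above the dotted line) and of the neutrophil list, for MyD88-KO minus WT (triangles) and double-KO minus TRIF-KO (diamonds). Ltf, Camp and Ngp lie at 1.90, 1.84 and 1.06 in the first comparison and at -0.27, 0.13 and -0.44 in the second.

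Over the whole interval, MyD88-KO against WT gave 33 of 265 members past the threshold (12.5%, 24 higher and 9 lower), against 9.92% of all genes (6.16% higher and 3.76% lower) and 8.87% of the rest of the chromosome. Of these, 6 reached 2-fold (2.26%, against 1.13% of all genes and 0.12% of the rest of the chromosome). They were Ltf, Camp, Ngp, Itga9, Vipr1 (0.13 by its other kept probe) and Lars2. Double-KO against TRIF-KO gave 52 of 266 (19.5%, 30 higher and 22 lower), against 22.8% of all genes (13% higher and 9.79% lower) and 19.5% of the rest. At least 2-fold were 5 (1.88%, against 3.18% of all genes and 2.16% of the rest): Itga9, Lrrc2, Lamb2, Glb1 and Csrnp1. Without the time point in the model the counts past the threshold were 7 and 22 (2.64% and 8.27% of members, against 1.14% and 7.91% of all genes). Scan day as a fixed block gave 11 and 33 (4.15% and 12.4%, against 1.3% and 14.7%). Slide as a random block gave 14 and 27 (5.28% and 10.2%, against 2.75% and 11.3%), and as a fixed block 10 and 43 (3.77% and 16.2%, against 2.7% and 13.8%). Without the MyD88-KO array of 8 h the first count was 20. The comparisons share 15 members with the same direction, 45.5% of the first list and 28.8% of the second; over all genes 52.3% and 22.8% were shared, or 5.19% of the genes tested. Ltf alone passed in both with opposite signs. Across the 265 genes the differences correlated with r = 0.41, as a description, against 0.44 over all genes.

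**Figure D4:**
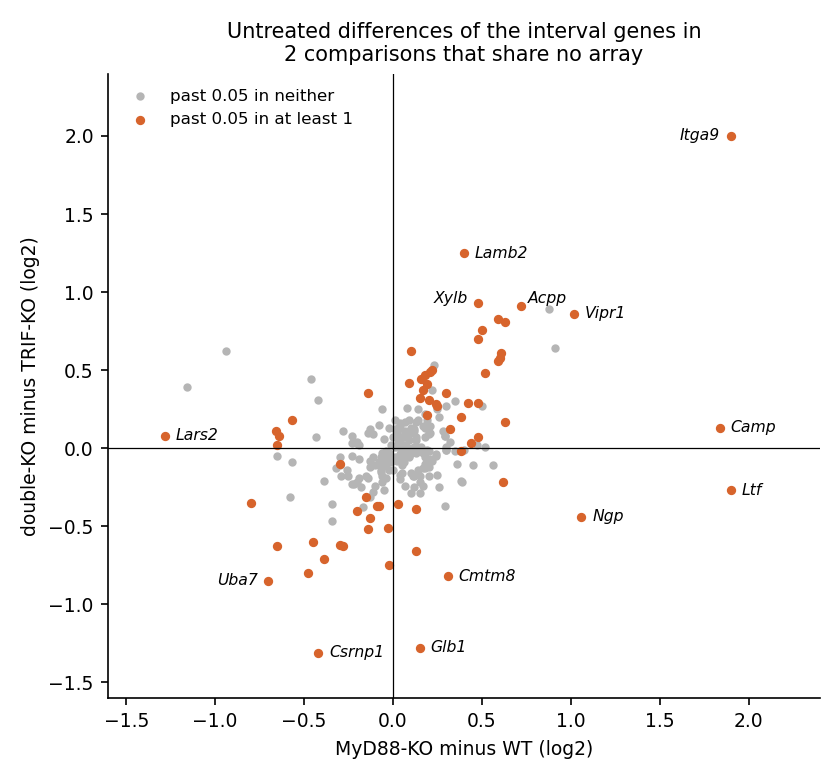
Log2 difference of untreated levels of each interval gene in MyD88-KO minus WT (horizontal) and in double-KO minus TRIF-KO (vertical); orange points passed an adjusted p of 0.05 in at least 1 of them. Itga9 is at 1.90 and 2.00, while Camp, Ltf and Lars2 lie near the horizontal axis and Glb1 and Cmtm8 below it.

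Some members were set apart in a single genotype, and in 14 of 265 (5.28%, against 3.75% of all genes) the interaction passed the threshold. The genes named in this and the next paragraph were chosen after their values were seen. Lars2, the mitochondrial leucyl-tRNA synthetase 4.13 Mb distal of Myd88, was low in MyD88-KO cells: 9.38, 9.51, 9.64 and 9.60 at 1, 4, 8 and 16 h. WT cells gave 10.57, 10.99, 10.67, 10.90 and 11.08, TRIF-KO cells 11.26, 11.26, 10.91, 10.87 and 10.71, and double-KO cells 11.30, 11.00, 11.01, 11.12 and 10.98. No array of the other genotypes came within the MyD88-KO range. MyD88-KO against WT gave -1.28 ± 0.13 (adjusted p = 6.9e-05, limma; 0.052 with slide as a fixed block) and double-KO against TRIF-KO 0.08 ± 0.12 (adjusted p = 0.70), with an interaction of 1.36 ± 0.18 (adjusted p = 0.00044). Limd1, its neighbour at 4.19 Mb, gave -0.65 and 0.02.

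Glb1, the lysosomal beta-galactosidase at -4.86 Mb from Myd88, was instead low in double-KO cells, at 12.73, 12.51, 12.51, 12.42 and 11.88. In TRIF-KO cells it read 14.07, 13.56, 13.83, 13.61 and 13.36, in WT cells 13.81, 13.40, 13.66, 13.48 and 13.31 and in MyD88-KO cells 13.83, 13.96, 13.70 and 13.27. Every double-KO array lay below every array of the other genotypes. The difference between double-KO and TRIF-KO was -1.28 ± 0.08 (adjusted p = 7.7e-08), that between MyD88-KO and WT 0.15 ± 0.09 (adjusted p = 0.29) and the interaction -1.43 ± 0.12 (adjusted p = 4.2e-06).

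Its neighbours Cmtm8 (-0.82), Cmtm7 (-0.51) and the oxysterol-binding protein gene Osbpl10 (-0.66) were also lower in double-KO than in TRIF-KO cells. With slide as a fixed block the Cmtm8 difference turned to 0.61, and another kept probe of Cmtm7 gave -0.09. In the same stretch Crtap gave 0.13, and the probes of Stt3b gave 0.04 and -0.60. Lamb2, the laminin beta 2 chain at -10.9 Mb, was 1.25 ± 0.08 higher in double-KO than in TRIF-KO cells (adjusted p = 6.2e-08) and 0.40 ± 0.08 higher in MyD88-KO than in WT cells (adjusted p = 0.01; -0.03 with slide as a fixed block). Csrnp1 was 1.31 ± 0.22 lower in double-KO than in TRIF-KO cells (log2 -1.31, adjusted p = 0.00053) and gave -0.42 ± 0.23 in the other comparison. Lrrc2 was 1.46 higher in double-KO than in TRIF-KO cells, but had usable values on 3 arrays of each and on no MyD88-KO array.

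By role, 10 of the 11 listed genes for secreted and granule proteins were represented, of which 4 were higher and 1 lower in MyD88-KO against WT, and 0 higher and 2 lower in double-KO against TRIF-KO, where 9.92% and 22.8% of all genes passed. Hyal1, a hyaluronidase, was the fourth that was higher (0.62), and Manf, a protein of the endoplasmic reticulum stress response, was lower in both (-0.65 and -0.63). Among 13 adhesion, matrix and guidance genes, 4 were higher and 1 lower without MyD88, where 16.6% of all genes were higher and 11.5% lower; Itga9 and Lamb2 were joined by Celsr3 (0.36) and the type VII collagen gene Col7a1 (0.22).

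The 23 genes of innate sensing and signalling gave 6 higher and 6 lower without MyD88, with a median of 0.04, against 16.6% and 11.5% of all genes. Uba7, the activating enzyme for the ubiquitin-like Isg15, read 15.45 to 16.55 in WT and 15.53 to 17.03 in TRIF-KO cells, against 15.11 to 15.59 in MyD88-KO cells and 15 to 15.57 in the double-KO, and fell by 0.77 ± 0.10 (adjusted p = 8.1e-05). Trex1, a DNA exonuclease, fell by 0.64, Azi2, a partner of the kinase Tbk1, by 0.58 and Tlr9, the receptor for bacterial DNA, by 0.35. Mapkapk3, a kinase downstream of p38, rose by 0.27 (0.11 by its other kept probe).

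For the lists that follow, too, 28.1% of all genes is the background, 16.6% higher and 11.5% lower. Of 17 metabolic enzymes 4 were higher and 2 lower; Acpp, an acid phosphatase at -15.1 Mb, rose by 0.82 ± 0.08. Of 17 genes of RNA and translation 5 were higher, among them the glutaminyl-tRNA synthetase gene Qars (0.38), and 1 was lower. The brightest probes of the ribosomal protein genes Rpsa (-0.08), Rpl14 (-0.03) and Rpl29 (0.10) did not pass, but another probe of Rpl14 (0.31, adjusted p = 0.0027) and another of Rpsa (0.20, adjusted p = 0.036) did in the fit of all probes (limma). The lists for DNA repair and the cell cycle (2 higher and 2 lower of 10) and for membrane traffic and the cytoskeleton (4 and 1 of 17) had medians of 0.04 and 0.09. Over all genes the median was 0.00.

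At the border of the interval, values are given for genes on both sides. Just inside the start, Acad11 gave 0.15, Dnajc13 -0.10 and the unnamed probe A_55_P2150323 -0.13, and none passed. Just outside, the transcript AK039631 gave -0.05 and did not pass.

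The groups with the same MyD88 label were of different sex type by Xist. TRIF-KO against WT gave 4 of 266 members (1.5%), Camp, Dalrd3 (0.40), Col7a1 (0.40) and Cdcp1 (-0.71), against 0.427% of all genes. Double-KO against MyD88-KO gave 23 of 265 (8.68%, 9 higher and 14 lower), against 7.55% (3.64% higher and 3.91% lower); Ltf led the lower genes at -1.73 ± 0.10 and Lars2 the higher ones at 1.52 ± 0.13. Without slide 3 the counts were 14 and 38, against 4.72% and 12.1% of all genes.

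The response to LPS was read as the ratio of both colours on each array. In WT cells 101 of 266 members passed (38%; 36 higher and 65 lower), against 36.3% of all genes (16.7% higher and 19.6% lower), and 14 of them reached 2-fold (5.26%, against 5.54%). Without loess normalization 40 were higher and 19 lower (22.2% together, against 24.8% of all genes). TRIF-KO cells gave 83 (31.2%, against 29% of all genes) and MyD88-KO cells 101 of 265 (38.1%, against 35.3%). Double-KO cells gave 0 of 266, against 0.327% (limma; 21 members, 7.89%, had an unadjusted p under 0.05, against 6.79%). LPS-treated RNA was in Cy5 on 19 of 20 arrays, so colour and treatment are hard to part. With dye as a term, which rests on 1 array, 7 members passed in WT cells (2.63%, against 2.08% of all genes).

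Bcl2a1c, of the Bcl2a1 family of survival genes, rose by 3.50 ± 0.42 (log2) in WT, 3.87 in TRIF-KO and 3.60 in MyD88-KO cells, and gave 0.08 in double-KO cells. The family has near-identical copies in the genome, so its probe may read several. Csrnp1 rose by 2.18 ± 0.23, 1.95 and 2.77 (0.14 in double-KO cells) and Lztfl1, a protein of ciliary traffic, by 1.71 ± 0.25, 1.92 and 0.97 (-0.06). Lrrfip2, an interactor of the Toll-like receptor pathway, rose by 1.11 in WT cells and Alas1, which starts haem synthesis, by 1.02.

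Genes lowered by LPS in WT cells included Acvr2b (-1.39 ± 0.22), the glycolytic regulator Pfkfb4 (-1.27), Vipr1, a receptor for vasoactive intestinal peptide (-1.13), Ltf (-1.01) and the glutathione peroxidase gene Gpx1 (-1.0). In double-KO cells these gave 0.00, -0.02, -0.14, -0.33 and 0.23. Vipr1 was also 0.94 ± 0.15 higher in untreated cells without MyD88 (adjusted p = 0.00043, and 0.70 with an adjusted p of 0.31 with scan day as a fixed block). That value is of its brightest probe, and its other kept probe gave 0.07 (adjusted p = 0.60). Itga9 gave -0.02 ± 0.26 in WT, 0.16 in TRIF-KO and 0.07 in double-KO cells, and in MyD88-KO cells it was lowered, at -0.72 ± 0.26 (adjusted p = 0.041).

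**Figure D5:**
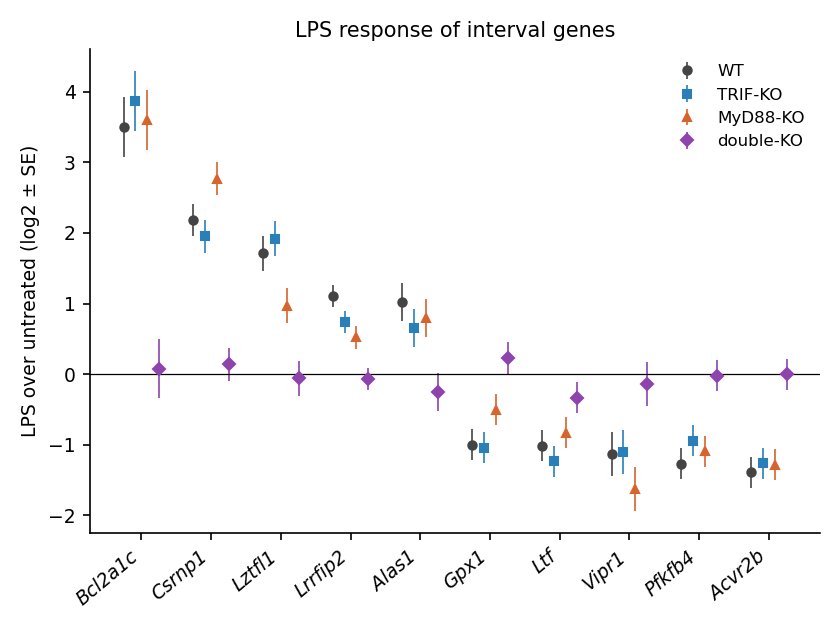
Log2 ratio of LPS-treated over untreated RNA (± SE) of 10 interval genes in the 4 genotypes, over the time points. The responses of WT cells run from 3.50 (Bcl2a1c) to -1.39 (Acvr2b), and the double-KO values lie between -0.33 and 0.23.

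In the LPS-treated RNA, 51 of 265 members differed by the MyD88 label (19.2%; 38 higher and 13 lower), against 20.2% of all genes (12.1% higher and 8.09% lower). In 0 of them did the arrays not overlap, against 0.254% of all genes. With slide as a fixed block 0 members passed, with 28 at an unadjusted p under 0.05, and 0.0182% of all genes passed.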

How the data were processed

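The authors deposited scanner tables of 2-colour Agilent arrays with an intensity per spot and colour, and a log10 ratio of red over green, made with Agilent Feature Extraction 10.10.1.1 on mm9 annotation, per the file headers; the log10 ratio served only as an alternative for the LPS response. In limma 3.58.1 (R 4.3.3 and the data.table package, version 1.17.8), mean and background intensities were corrected with normexp (offset 50), normalized by loess within and Aquantile between arrays, and taken as log2 levels per colour or log2 ratios. A probe was kept if well above background in either colour on at least 3 arrays (28388 of 39429), and the brightest kept probe stood for a gene. The fit had group and time point, with Benjamini-Hochberg adjustment over all genes and a threshold of 0.05. Samples of the same time point deviated together in all 27 pairs of groups and hours (r from 0.13 to 0.81), so the time point was kept as the replicate block. Genes were named if past the threshold, at least 2-fold and with no overlap of arrays, if among the 5 nearest to Myd88 on a side, on the border of the interval, or in a list by role; other named genes were chosen after their values were seen. The members and lists were chosen with earlier results of these data known. The fitting was tested on simulated data. The MyD88-KO array of 2 h was left out of fits of levels for its opposite dye. A few genes that this rule names are not reported here.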

Additional observations from a re-analysis of the deposited data

Results flagged for a closer look

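Of 197 groups of arrays of 50 named genes, 11 held an array far from the others of its genotype; chance gives about 1 in 20 groups. Since arrays of a genotype differ in hour, the hour is given. Itga9 at 16 h read 7.95 in TRIF-KO (other arrays 7.07 to 7.15), 10.79 in MyD88-KO (9.11 to 9.26) and 10.46 in double-KO cells (8.85 to 9.16). Oxsr1 read 11.59 in TRIF-KO cells at 1 h (10.95 to 11.02) and 10.76 in double-KO cells at 2 h (11.14 to 11.29). In MyD88-KO cells Acaa1a read 16.89 at 16 h (17.21 to 17.26), Cmtm8 10.83 at 1 h (10.21 to 10.25) and Lrrfip2 10.57 at 1 h (11.47 to 11.53). In double-KO cells Csrnp1 read 10.54 at 1 h (10.03 to 10.06) and Gorasp1 11.88 at 8 h (11.56 to 11.64). Bcl2a1c read 11.87 in WT cells at 4 h (11.36 to 11.50).

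In 14 genes the difference between double-KO and TRIF-KO was not that between MyD88-KO and WT, by the interaction in the limma fit over all genes (5.28% of members, 3.75% of all genes). The first minus the second was -2.17 for Ltf, -1.71 for Camp, -1.5 for Ngp, -1.43 for Glb1, -1.13 for Cmtm8, -0.84 for Hyal1, -0.78 for Osbpl10 and -0.41 for Dalrd3. It was 1.36 for Lars2, 0.85 for Lamb2, 0.76 for Vill, 0.76 for Cdcp1, 0.67 for Limd1 and 0.49 for Atp2c1.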

How the results depend on the processing

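Counts are of member genes past the threshold, in the order MyD88 label (74), within 1 Mb of Myd88 (11), MyD88-KO against WT (33), double-KO against TRIF-KO (52), TRIF-KO against WT (4), double-KO against MyD88-KO (23), interaction (14), LPS-treated levels (51) and LPS response of WT cells (101). With no replicate block, that is without the pairing by time point, they were 31, 6, 7, 22, 1, 13, 6, 19 and 59. The shares of all genes in these fits were 10.9%, 10.9%, 1.14%, 7.91%, 0.15%, 2.46%, 1.13%, 7.01% and 23.5%. Slide as a random block gave 36, 6, 14 and 27 for the first 4, 1 for TRIF-KO against WT, 14 for LPS-treated levels and 53 for the WT response. Of all genes, 12.9%, 12.9%, 2.75%, 11.3%, 0.172%, 4.93% and 20.5% passed there. Scan day as a fixed block gave 24, 3, 11, 33, 7, 37, 29 and 9 for the first 8. All genes gave 8.43%, 8.43%, 1.3%, 14.7%, 1.41%, 11.8%, 11.8% and 2.97%. The 37 were 14% of members and the 29 were 10.9%. Slide as a fixed block gave 28, 6 and 10 for the first 3 and 0 for TRIF-KO against WT and for LPS-treated levels (limma, with 23 and 28 at an unadjusted p under 0.05). Here 9.97%, 9.97%, 2.7%, 0.132% and 0.0182% of all genes passed, with 13.9% and 10.7% at the unadjusted p for the last 2. For TRIF-KO against WT, the processed signal gave 2 (0.549% of all genes), all kept probes 7 (0.55%) and only the groups compared 8 (1.86%). The processed signal gave 21 for MyD88-KO against WT (5.57% of all genes). Only the groups compared gave 11 for double-KO against MyD88-KO (3.34% of all genes). Without slide 3, chosen after seeing the data, TRIF-KO against WT gave 14, double-KO against MyD88-KO 38, the interaction 41 and LPS-treated levels 11. The shares of all genes were 4.72%, 12.1%, 17.2% and 5.86%, and the 41 were 15.5% of members. The WT response was 59 without loess (24.8% of all genes) and 7 with dye as a term (2.08%). With the log ratios of the scanner software, also chosen after seeing the data, it was 107 (40.2%, against 37.7% of all genes). Leaving out 1 array gave, in the first order, 63 to 80, 8 to 12, 20 to 48, 43 to 63, 1 to 7, 15 to 37, 10 to 29, 35 to 65 and 53 to 103. The 20 came without the MyD88-KO array of 8 h, the 37 and the 29 without that of 1 h, and the 53 without the WT array of 4 h. With slide as a fixed block, signs turned for Ngp (-1.44, adjusted p = 0.014, limma) and Ttc21a (-0.08) by MyD88 label. They also turned for Lamb2 in MyD88-KO against WT (-0.03), Cmtm8 in double-KO against TRIF-KO (0.61) and Lztfl1 in LPS-treated levels (0.78). Of these, only Ngp passed the threshold in that fit. Without loess, the sign turned for Limd1 in the WT response (0.02). The cause was not tested. Of 4062 values of named genes under other settings 3643 kept direction and side of the threshold, as did 6299 of 6605 with 1 array left out. Scan day nearly follows the MyD88 label, and slide 3 alone holds arrays of both labels on day 1, so the blocked values rest on few arrays. Levels near background, as for Itga9 and Lamb2 in WT and TRIF-KO cells, understate differences.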
